A study of Aspergillus nidulans with 7 samples.

Results

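Late and early asexual development in air were compared in the filamentous fungus Aspergillus nidulans, in its wild-type (WT) strain FGSC A4. The late side held the libraries of 30 and 48 h in air and the early side those of 6 and 12 h, so 4 of the 7 libraries of the time course entered the comparison, chosen by the time on their labels. Per the labels' protocols, conidia were grown to mycelium in aerated minimal medium at room temperature. The mycelium was collected on filter paper, and the filters were kept moist on glass beads, open to the air, under constant light. All 4 libraries share the strain, the medium, the light and this shift from liquid to air, and they differ by label in time alone. The labels place aerial hyphae at about 6 h, metulae at about 12 h and mature conidiophores with chains of spores from 24 to 48 h. The submerged 0 h library and the middle libraries of 18 and 24 h took no part in the choice of genes and are given beside it. Duplicate filters were collected at each time, but each time has 1 column of values, and the sources used here do not say if the pair was pooled. The spread within a side is therefore the difference between its 2 times plus the difference between its 2 libraries, and the 2 cannot be told apart.

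The conidiophore of A. nidulans is a stalk that swells into a vesicle, buds off metulae and then phialides, and the phialides release chains of pigmented, water-repellent conidia. The transcription factors BrlA, AbaA and WetA act in that order, from the swelling of the stalk to the finishing of the spore wall. Hydrophobins coat the spore, and a polyketide pigment colours its wall.

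Read counts were scaled to CPM, counts relative to a fixed library total, with the TMM factors of edgeR, and a log2 change is the late minus the early value fitted by edgeR's quasi-likelihood test, with its standard error (SE) and n = 2 libraries a side. Total counts were 9899347 at 30 h and 9018102 at 48 h, against 5351272 at 6 h and 4186063 at 12 h. A count of 3 was worth 0.267 and 0.28 CPM in these late libraries and 0.709 and 0.764 CPM in the early ones, so low early levels are the less precise. Of 10639 genes in the table, 9338 passed a filter of 1 CPM in 2 of the 4 libraries, and 769 of those carry a symbol in the reference gene table. Over the tested genes the median log2 change was 0.09. Spearman's rho across genes was 0.919 between 30 and 48 h and 0.964 between 6 and 12 h. Across the sides it was 0.934 for 30 h with 12 h, 0.898 for 30 h with 6 h, 0.828 for 48 h with 12 h and 0.81 for 48 h with 6 h. The 30 h library was thus slightly nearer in rank order to the 12 h library than to the 48 h library, and the other 3 pairs across the sides were below both pairs within a side.

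No gene passed a Benjamini-Hochberg adjusted p of 0.05 in edgeR's test (0.00%), where the smallest adjusted p was 0.0948. At an unadjusted p under 0.05 the same test had 1102 genes higher late (11.8%) and 895 lower (9.58%). By adjusted p, limma-voom called 0 genes, with 1763 at an unadjusted p under 0.05, and DESeq2 called 537 higher and 488 lower. When the 18 and 24 h libraries were added to the edgeR fit as a middle side, which gives the spread more libraries, 211 genes were higher late (2.26%) and 69 lower (0.739%). Leaving out the 30 h library gave 539 higher and 567 lower by edgeR, and leaving out the 48 h library gave 17 and 0. Because the calls hung on these choices, genes are described here by size, a rule chosen after the data were seen. No "rose" or "fell" is written of them, and words such as increase, decrease or climb describe differences between these libraries, not calls of edgeR's test. A gene counts as apart when both late libraries are at least 2-fold above, or at least 2-fold below, both early ones on CPM plus 0.5.

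By that rule 616 genes were higher late (6.60%) and 294 were lower (3.15%), 9.75% in either direction, and with library totals alone in place of TMM the counts were 983 and 131. A 4-fold distance left 188 genes higher (2.01%) and 20 lower (0.214%). The sides did not overlap, with late above early, for 2992 genes (32.0%), and with late below early for 2497 (26.7%). Of the 616 higher genes, 210 were also called higher in the fit with a middle side and 448 by DESeq2, and of the 294 lower genes 67 and 265 were called lower. Only 28 of the higher and 26 of the lower genes have a symbol. The median log2 change was 2.82 over the higher genes and -1.95 over the lower ones, a size set in part by the rule itself.

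**Figure D1:**
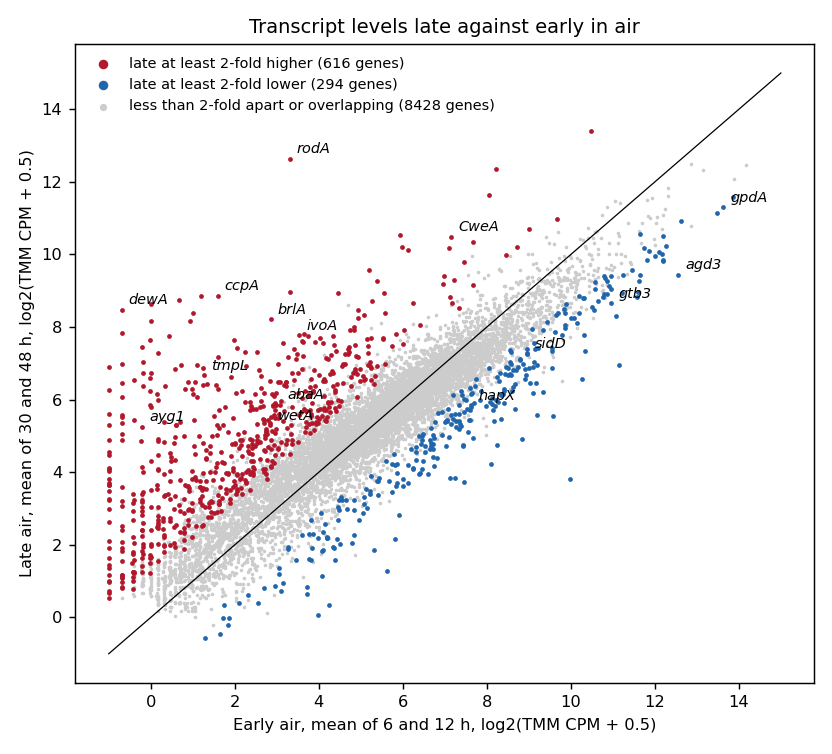
Each point is 1 of 9338 genes, with the mean of the 30 and 48 h libraries on the y axis and the mean of the 6 and 12 h libraries on the x axis, both as log2(TMM CPM + 0.5), and the line marks equal levels. Red points are the 616 genes at least 2-fold higher late and blue points the 294 at least 2-fold lower. The red points reach down to the lowest early levels, near which dewA lies.

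Among the 7 central regulators of conidiation tested, brlA, abaA and wetA were at least 2-fold higher late and none was at least 2-fold lower, where the shares over all genes were 6.60% and 3.15%. brlA (AN0973), which encodes the zinc finger factor that starts the conidiophore, had 189 and 407 CPM at 30 and 48 h, against 0.709 and 12.7 CPM at 6 and 12 h, a log2 change of 5.48 ± 1.15 (SE). Its early pair differed from each other as well, with 3 counts at 6 h and 50 at 12 h. abaA (AN0422), whose product acts in the phialide, had 30.7 and 84.5 CPM late, against 9.22 and 6.62 CPM early, and wetA (AN1937), needed to complete the conidial wall, had 26.0 and 52.0 CPM late, against 5.20 and 8.15 CPM early. Their log2 changes were 2.86 ± 0.58 and 2.55 ± 0.50 (SE). The reading of abaA carries a limit, since the gene overlaps another listed gene and the sources used here do not state if counting used the strand.

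Outside the comparison, brlA had left its early levels by 18 h, and abaA and wetA had not. At 18 and 24 h brlA had 75.2 and 112 CPM, levels between its early and its late ones. At the same times abaA had 9.42 and 11.3 CPM and wetA 7.71 and 9.86 CPM, near the early levels. The place of submerged mycelium depended on the scale for both: on the TMM scale, where the 0 h library has a factor of 0.396, abaA and wetA had 17.8 and 10.5 CPM at 0 h, above both early libraries. In the authors' deposited RPKM they had 2.95 and 2.50 at 0 h, between their 6 and 12 h values of 3.05 and 2.60 for abaA and 2.46 and 4.58 for wetA. For both, most of the distance between the sides lay after 24 h in these libraries.

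In edgeR's test the adjusted p was 0.110 for brlA, 0.106 for abaA and 0.10 for wetA. Over the alternatives run with edgeR, limma-voom and DESeq2, the adjusted p of brlA ranged between 2.24e-07 and 0.609, that of abaA between 0.000335 and 0.622 and that of wetA between 0.000742 and 0.622. The highest of each came without the 6 h library and the lowest from DESeq2. All 3 were called higher in the fit with a middle side.

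The other 4 central regulators were less than 2-fold apart. medA, a developmental regulator that shapes the conidiophore, had 276 and 235 CPM late, against 644 and 552 CPM early. Its sides did not overlap and only just missed the 2-fold rule for a lower gene, and its log2 change was -1.23 ± 0.35 (SE). stuA, a factor for the spatial pattern of conidiophore cells, overlapped between the sides, with 1094 and 1660 CPM late, against 1123 and 1255 CPM early. Without the 48 h library the log2 change of stuA was -0.10, against 0.21 with it. vosA and velB, velvet regulators of spore maturation, had log2 changes of 0.69 ± 0.36 and -0.65 ± 0.28 (SE).

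**Figure D2:**
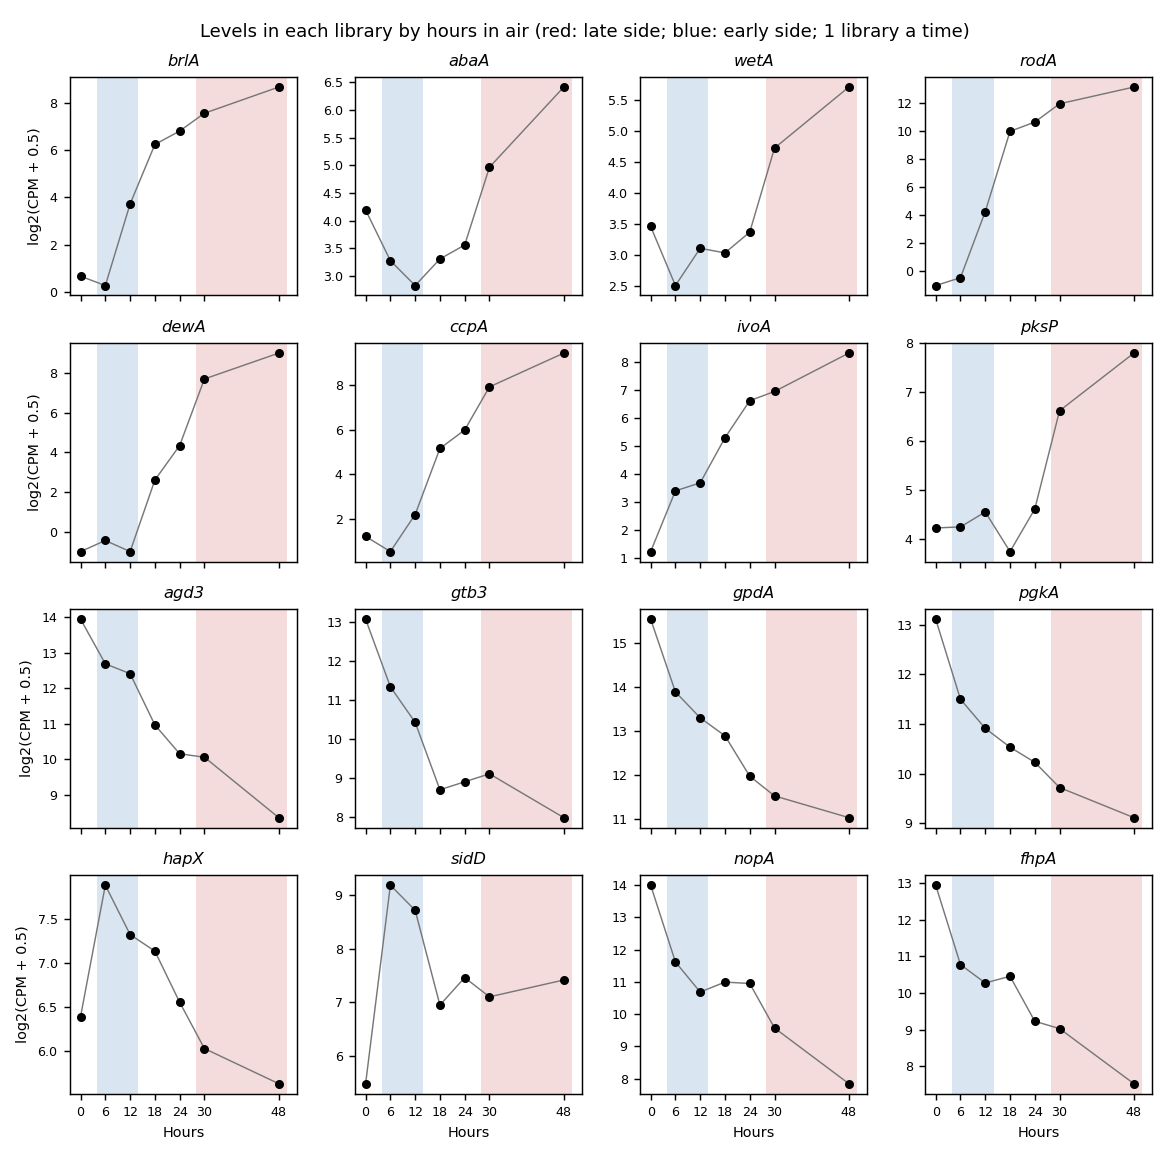
Each panel shows 1 gene in the 7 libraries, with hours in air on the x axis and log2(CPM + 0.5) on the y axis, whose range differs between panels, and shading marks the late (red) and early (blue) libraries; the 0 h points rest on a TMM factor of 0.396. The regulators and wall genes in the upper rows are highest at 48 h, and in the lower rows all but sidD are lowest at 48 h among the libraries in air.

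None of the 7 tested upstream activators of conidiation was 2-fold apart, and 9.75% of all genes were. Their median log2 change was -0.37, but it was 0.06 without the 48 h library and 0.04 with library totals, so no direction is given for the list. fluG, which is needed for the signal that starts conidiation, had 91.0 and 180 CPM late, against 568 and 265 CPM early, lower in both late libraries and with a log2 change of -1.62 ± 0.54 (SE). Its edgeR adjusted p was 0.187. The remaining 6, flbA, flbB, flbC, flbD, flbE and tmpA, had log2 changes between -0.62 and 0.24. The 7 tested repressors, velvet and sexual regulators, among them veA, laeA and nsdD, were also less than 2-fold apart, with log2 changes between -0.18 and 0.51. The list of light, oxylipin and pheromone signals had 5 tested genes, fphA, lreB, ppgA, preA and preB, so no oxylipin gene was tested. Of these, 1 was at least 2-fold higher late (6.60% over all genes), and lreA, a 6th member, is listed at 0 in all 7 libraries. The higher gene, ppgA, encodes the pheromone precursor and had 8.20 and 8.86 CPM late, against 1.42 and 3.06 CPM early. The pheromone receptor gene preA was higher late in both libraries but less than 2-fold apart, with 23.3 and 37.8 CPM against 7.56 and 14.8 CPM early.

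All 10 tested spore wall and pigment genes were at least 2-fold higher late, where the share over all genes was 6.60%, and 9 of them were called higher in the fit with a middle side, where it was 2.26%. Their median log2 change was 4.18, and the lowest was 2.95. Only 11 of the 24 listed genes matched a symbol, and the unmatched ones are not described here. Of the 11, arp1, a pigment gene with 9 and 13 counts at 30 and 48 h and 0 and 2 counts at 6 and 12 h, was too low to be tested. A filter on CPM lets a gene in when it is high on 1 side alone, so these counts describe the members and test nothing over them. In bulk RNA, more cells of a type and more RNA per cell cannot be told apart, for these genes or any others here.

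The hydrophobin genes had the largest changes of any gene with a symbol. dewA (AN8006), a hydrophobin of the conidial wall, had 206 and 509 CPM at 30 and 48 h, against 0.236 and 0 CPM at 6 and 12 h. The early value rests on 1 count in both libraries together, and the ratio of pooled counts was 2887-fold (exact 95% interval 518 to 114040, counting error only). rodA (AN8803), which encodes the rodlet hydrophobin that makes spores water-repellent, had 3889 and 8871 CPM late, against 0.236 and 18.6 CPM early. Its early counts were 1 and 73, so the early pair differed by far more than the late pair, and the log2 change was 9.41 ± 1.88 (SE). The 2 genes also left the floor at different times: at 18 and 24 h rodA had 999 and 1577 CPM, when dewA had 5.57 and 19.7 CPM. Adjusted p-values from edgeR were 0.0948 for dewA and 0.106 for rodA, and over the alternatives (edgeR, limma-voom, DESeq2) they ranged between 4.63e-11 and 0.609 and between 0.000207 and 0.609.

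In the authors' deposited RPKM values, which allow levels of different genes to be compared per length, rodA ranked 2 at 30 h and 1 at 48 h over all genes, with 9305 and 22250 RPKM. At 12 h the authors' value was 36.8 RPKM and the rank 3570, and at 6 h the value rests on 1 count. dewA ranked 289 and 85 in the late libraries, with 573 and 1482 RPKM. A single hydrophobin gene thus stood above every other gene of the table at 48 h on the per-length scale.

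Other wall proteins followed with smaller changes. ccpA, which encodes a protein of the conidial surface, had 241 and 690 CPM late, against 0.945 and 4.07 CPM early. cspA, named for a wall glycoprotein known from A. fumigatus, had 88.2 and 249 CPM late, against 9.69 and 10.7 CPM early. Its 18 and 24 h levels were 10.7 and 17.5 CPM, so the late libraries alone stood apart. CweA, given under that symbol, was well expressed on both sides, with 763 and 2112 CPM late, against 121 and 162 CPM early.

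The pigment genes, too, were higher in both late libraries than in either early one. pksP (AN8209), the polyketide synthase of the spore pigment, had 97.9 and 222 CPM late, against 18.4 and 22.9 CPM early, and yA (AN6635), the laccase that turns the pigment green, had 145 and 343 CPM late, against 19.1 and 33.4 CPM early. ayg1, named after an A. fumigatus gene of the melanin pathway, was nearly silent early, with 17.7 and 57.6 CPM late, against 0.473 and 0.255 CPM early. ivoA and ivoB make the brown pigment of the conidiophore stalk. ivoA had 122 and 316 CPM late, against 9.93 and 12.2 CPM early. ivoB had 191 and 316 CPM late, against 2.13 and 54.5 CPM early, a log2 change of 3.17 ± 1.24 (SE), so its 12 h level was far from its 6 h level. Its adjusted p was 0.226 in edgeR and between 0.134 and 0.612 over the alternatives, so no alternative called it.

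The 15 largest increases among genes with a symbol held all 10 of these wall and pigment genes, with brlA, tmpL, encD, fmaF and ugd2. Their edgeR adjusted p ran between 0.0948 and 0.226, and 12 of the 15 were called in the fit with a middle side. tmpL, which encodes a transmembrane protein with a part in redox control, had 66.2 and 137 CPM late, against 0 and 3.82 CPM early. ugd2, beside ayg1 on contig 167, had 54.3 and 64.5 CPM late, against 2.60 and 12.0 CPM early.

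Genes already well expressed early could also be higher late. With at least 20 CPM in both early libraries, the largest increases among named genes were those of CweA, pst2, agdC, pxa1 and nfr1. agdC, an alpha-glucosidase gene, had 106 and 190.0 CPM late, against 25.8 and 32.6 CPM early, and 1 of 12 tested genes of plant polysaccharide degradation, agdC itself, was 2-fold apart, a share near the 9.75% over all genes. pxa1, named after the yeast importer of fatty acids into peroxisomes, had 90.1 and 137 CPM late, against 25.5 and 31.6 CPM early, and it overlaps another listed gene. pst2 had 390 and 426 CPM late, against 57.7 and 91.9 CPM early, so its late pair was nearly level. The log2 changes of these 5 genes lay between 1.89 and 3.34.

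A set of 19 genes had at most 3 counts in each early library and at least 20 CPM in both late ones, and no gene had the opposite pattern. The opposite pattern is the stricter rule, since 3 counts were worth 0.267 and 0.28 CPM late and 0.709 and 0.764 CPM early. Of the 19 genes, 18 were above 3 counts by 18 h and 14 had no count in the submerged library, and dewA was the only one with a symbol. At 48 h they stood 1.42-fold to 8.38-fold above 30 h, with a median of 3.39-fold. AN8624 and AN8382 had no count in either early library. AN8624 had 45.9 and 192 CPM late, at least 319-fold higher, and AN8382 had 38.7 and 113 CPM late, at least 204-fold higher, against a floor of 3 counts over the early pair. The reference table gives no symbol for either.

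Genes higher late also lay side by side. On the contigs of the deposited table, whose genome build the sources used here do not state, 5 runs of at least 5 neighbouring genes were all at least 2-fold higher late, with 36 genes in all. No such run was lower, where the longest had 3 genes. The reference table gives a symbol to 1 of the 36 genes, encD, and no function is given here to the others.

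In 3 of the runs no gene was above 6.38 CPM early. AN9246 to AN9253 (8 genes, contig 169, positions 29233 to 43446) had 7.48 to 135 CPM at 30 h and 24.2 to 434 CPM at 48 h, against at most 1.18 and 1.02 CPM at 6 and 12 h. The neighbouring AN11214 to AN9259 (8 genes, contig 169, positions 47965 to 63121) had 0.98 to 74.6 CPM at 30 h and 1.96 to 242 CPM at 48 h, against at most 6.38 and 4.07 CPM early. AN8375 to AN8381 (7 genes, contig 149, positions 32857 to 53735) had 2.49 to 110 CPM at 30 h and 12.6 to 349 CPM at 48 h, against at most 0.51 CPM early. Every gene of these runs was higher at 48 h than at 30 h. In the fit with a middle side, 18 of the 23 genes were called higher: 8 of 8, 6 of 8 and 4 of 7 in the order given. That fit called 2.26% of all genes higher and 210 of the 616 genes from which the runs were drawn.

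The other 2 runs had another course. AN3225 to AN3230 (6 genes, contig 52, positions 40066 to 58506) had 142 to 1131 CPM at 30 h and 98.9 to 1175 CPM at 48 h, and 5 of the 6 were lower at 48 h than at 30 h. AN9174 to AN9178 (7 genes with encD, contig 167, positions 15157 to 32118) had a 6 h level above the 12 h level in 6 of its 7 genes. AN9178 had 298 and 677 CPM at 30 and 48 h, against 85.1 and 8.15 CPM at 6 and 12 h. encD itself had 26.2 and 52.0 CPM late, against 4.02 and 1.53 CPM early.

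**Figure D3:**
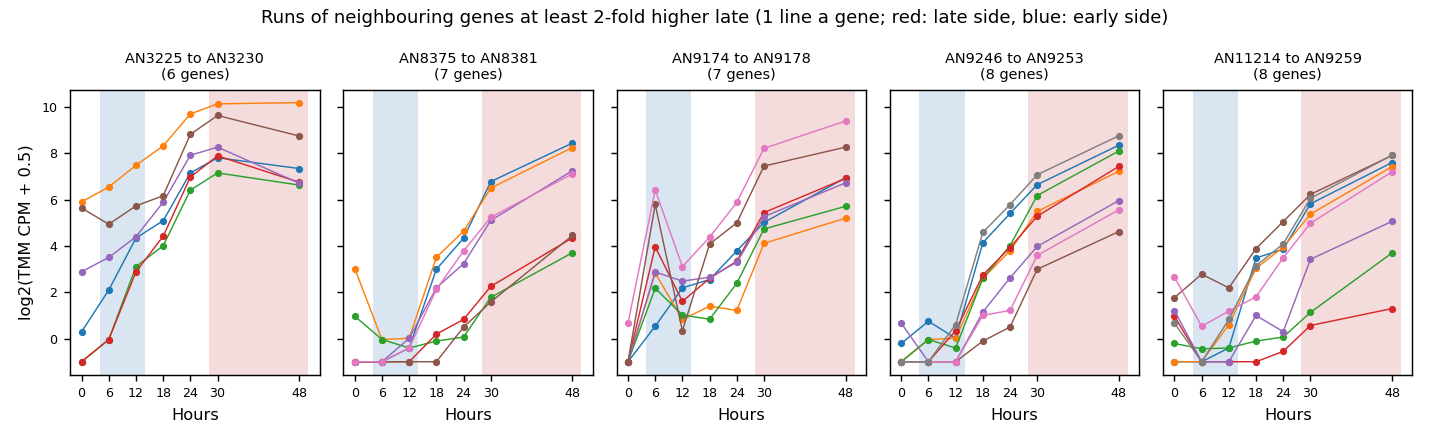
Each panel is 1 of the 5 runs of neighbouring genes and each line 1 gene, with hours in air on the x axis and log2(TMM CPM + 0.5) on the y axis. AN3225 to AN3230 level off or turn down between 30 and 48 h, AN9174 to AN9178 have a peak at 6 h in most genes, and the other 3 runs climb through 48 h.

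Among the 7 tested genes of other secondary metabolite clusters, 3 were at least 2-fold higher late (ivoA, encD and fmaF) and 3 were lower (sidD, pkhB and fmaG), where the shares over all genes were 6.60% and 3.15%. Only these 7 of 111 listed genes matched a symbol, so most of the list was not tested and the counts do not describe whole clusters. ivoA is also counted among the pigment genes, and sidC and sidD also in the iron list. fmaF and fmaG, both named after a gene cluster of A. fumigatus, went opposite ways: fmaF had 27.8 and 75.5 CPM late, against 1.65 and 7.64 CPM early, and fmaG had 52.7 and 53.2 CPM late, against 134 and 136 CPM early. They lie on contigs 110 and 53. pkhB (AN3101), given under that symbol, had 179 and 137 CPM late, against 365 and 398 CPM early. It entered the list by symbol alone, so its place in a secondary metabolite cluster was not checked.

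Genes for a wall polysaccharide were among those lower late. The largest decrease of a gene with a symbol was that of agd3 (AN2954), the deacetylase of the wall polysaccharide galactosaminogalactan, with 1063 and 326 CPM late, against 6604 and 5447 CPM early. gtb3 (AN2955), the glycosyltransferase of the same polysaccharide, lies beside it on contig 49 and had 553 and 254 CPM late, against 2594 and 1380 CPM early. The log2 changes were -3.12 ± 0.76 and -2.30 ± 0.62 (SE). Both were highest in the submerged library, at 15830 and 8615 CPM, on a scale where that library has a TMM factor of 0.396. For agd3 the adjusted p was 0.129 in edgeR and between 4.44e-06 and 0.641 over the alternatives.

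Of the 18 tested genes for the synthesis and remodelling of wall polysaccharides, 3 were at least 2-fold higher late (ugd2, ags2 and scw4) and 3 were lower (agd3, gtb3 and btgE), beside 6.60% and 3.15% over all genes. Of the 2 alpha-glucan synthase genes only ags2 passed the 2-fold rule. ags2 had 134 and 172 CPM late, against 10.9 and 40.2 CPM early, while ags1, less than 2-fold apart, had 824 and 430 CPM late, against 1517 and 1256 CPM early. The neighbouring chsE and csmB, chitin synthase genes with a myosin-like part, were lower in both late libraries but less than 2-fold apart. chsE had 674 and 443 CPM late, against 1681 and 1101 CPM early, and csmB had 753 and 490 CPM late, against 1639 and 1224 CPM early. chsD, another chitin synthase gene, was higher late, at 7.48 and 8.21 CPM, against 2.13 and 4.33 CPM early. Its distance was also under 2-fold. btgE, a beta-glucosidase gene of the wall, had 1457 and 869 CPM late, against 3377 and 3456 CPM early. chiA1, a chitinase gene counted in no list, had 1335 and 515 CPM late, against 3315 and 3832 CPM early.

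**Figure D4:**
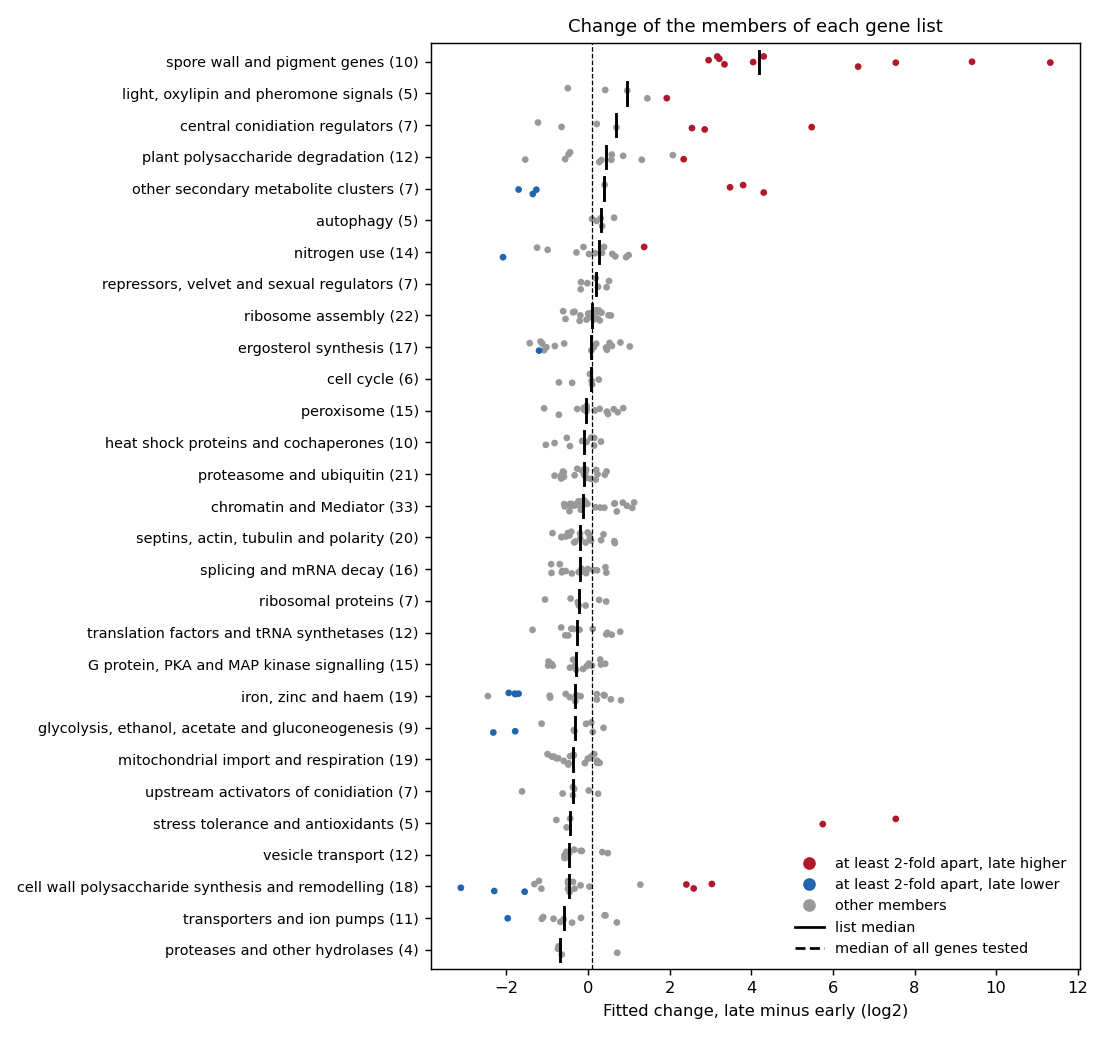
Each point is the fitted log2 change (late minus early) of 1 tested gene in the list named at the left, with the number of tested members in brackets, the solid bar is the list median and the dashed line the median of all tested genes. Spore wall and pigment genes all lie at or above 2.95, and in the lists of ribosome assembly, proteasome and splicing genes every point is grey.

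Genes of 2 successive enzymes of glycolysis were lower late. gpdA (AN8041), which encodes glyceraldehyde-3-phosphate dehydrogenase, had 2965 and 2106 CPM late, against 15240 and 10132 CPM early, and pgkA (AN1246), the gene of the next enzyme of the pathway, had 842 and 553 CPM late, against 2890 and 1925 CPM early. By the authors' RPKM values gpdA ranked 26 and 29 at 30 and 48 h and 2 in both early libraries. The log2 changes were -2.32 ± 0.66 and -1.79 ± 0.52 (SE), and edgeR gave gpdA an adjusted p of 0.154, between 1.19e-06 and 0.651 over the alternatives. They were the 2 lower genes among 9 tested in the list of glycolysis, ethanol, acetate and gluconeogenesis, beside 3.15% over all genes. Only these 9 of 53 listed genes matched a symbol, so most of the list was not tested. The other 7 were facB, acuF, acuM, fbp1, mcsA, creA and creB, and none was 2-fold apart. acuF, the phosphoenolpyruvate carboxykinase gene, came nearest with 304 and 308 CPM late, against 595 and 754 CPM early.

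Iron-related genes supplied 4 of the lower genes and none of the higher ones among 19 tested in the iron, zinc and haem list, beside 3.15% lower and 6.60% higher over all genes. hapX (AN8251), the regulator of the response to low iron, had 64.8 and 49.1 CPM late, against 236 and 160 CPM early, and a log2 change of -1.80 ± 0.33 (SE). Its edgeR adjusted p was 0.0961, between 0.000405 and 0.609 over the alternatives, and the fit with a middle side called it. sidD (AN6236), the synthetase of an excreted siderophore, had 137 and 170 CPM late, against 581 and 420 CPM early. mirD, a siderophore transporter gene near it on contig 104, had 12.2 and 9.05 CPM late, against 45.1 and 28.0 CPM early. The other siderophore genes of the list were less than 2-fold apart: sidH, sidI and sidJ had log2 changes of -0.31, -0.55 and -0.93, and sidC, mirB and mirC of 0.40, 0.38 and 0.22. sreA, the repressor of iron uptake, had 0.56. hem13, a haem synthesis gene, had 717 and 247 CPM late, against 2178 and 1530 CPM early. mrsA, a mitochondrial iron carrier gene outside the list, had 52.7 and 33.7 CPM late, against 256 and 122 CPM early.

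The level in submerged mycelium divided these genes. hapX, sidD, mirD and mrsA had 83.6, 44.3, 1.45 and 11.3 CPM at 0 h, each below both early libraries, so their highest level of the whole course was at 6 h. hem13 was highest in submerged mycelium, at 4956 CPM. sidC, the synthetase of the siderophore kept inside the cell, was less than 2-fold apart, with 248 and 325 CPM late, against 145 and 288 CPM early. zrfA, a zinc transporter gene, had a larger log2 change of -2.46 ± 0.98 (SE) and yet missed the size rule, because its 207 CPM at 30 h was close to the 338 CPM at 12 h, while it had 31.6 CPM at 48 h and 972 CPM at 6 h.

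Further named genes with lower late levels belong to other functions. nopA, an opsin-related gene, had 759 and 229 CPM late, against 3136 and 1643 CPM early. fhpA, a flavohaemoglobin that detoxifies nitric oxide, had 521 and 183 CPM late, against 1751 and 1236 CPM early. It was the 1 lower gene of 14 tested nitrogen genes, beside 3.15% lower and 6.60% higher over all genes. The 1 higher gene was hxB, with 56.7 and 56.7 CPM late, against 16.8 and 27.0 CPM early. The nitrate assimilation genes niiA and niaD were lower in both late libraries than in either early one, but less than 2-fold apart. pmcC, a calcium pump gene, had 43.3 and 10.4 CPM late, against 113 and 97.3 CPM early. erg5, a sterol desaturase gene, had 161 and 166 CPM late, against 408 and 343 CPM early. pmcC was the 1 lower gene of 11 tested transporters and ion pumps, and erg5 the 1 lower gene of 17 tested ergosterol genes. Neither list had a higher gene, beside 3.15% lower and 6.60% higher over all genes. No result about either list is drawn from 1 gene. cprA, the P450 reductase gene, had 382 and 283 CPM late, against 1475 and 876 CPM early, and it overlaps another listed gene. The 15 largest decreases also held admA, ccg9 and ish1, with log2 changes of -2.43 ± 0.49, -2.25 ± 0.59 and -2.22 ± 0.50 (SE). Over these 15 genes the edgeR adjusted p ran between 0.0961 and 0.187, DESeq2 called all 15, and the fit with a middle side called 3, admA, mrsA and hapX.

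Among genes without a symbol, AN7521 and AN7851 had the largest decreases, and both were set mostly by the 6 h library. AN7521 had 21.6 and 5.50 CPM late, against 1915 and 121 CPM early, and AN7851 had 2.41 and 1.49 CPM late, against 88.6 and 8.40 CPM early. In submerged mycelium they were at 2.54 and 0.363 CPM, so 6 h was a peak for both. The highest CPM levels among genes that were apart, on a scale not divided by gene length, belonged to AN7217, rodA and AN5558 late and to AN4888, gpdA and AN5860 early. AN7217 had 12102 and 9459 CPM late, against 1669 and 1187 CPM early. In the submerged library it was at 8246 CPM, above both early libraries, on a scale where that library has a TMM factor of 0.396. AN5558, which overlaps another listed gene, had 1697 and 8728 CPM late, against 415 and 184 CPM early. AN4888 had 5056 and 1063 CPM late, against 18054 and 11534 CPM early.

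In the stress tolerance list of 5, ccpA and tmpL, both given above, were higher, and catA, orlA and treA, genes of a spore catalase and of trehalose making and breakdown, had log2 changes between -0.78 and -0.44. The remaining lists had no member 2-fold apart, where 9.75% of all genes were, a share that comes to under 1 gene in the shorter lists. These were G protein, PKA and MAP kinase signalling (15 tested), septins, actin, tubulin and polarity (20), the cell cycle (6), histones (2), heat shock proteins (10), ribosome assembly (22), translation (12), ribosomal proteins (7), the proteasome (21), the peroxisome (15), autophagy (5), vesicle transport (12), mitochondrial import and respiration (19), splicing and mRNA decay (16), chromatin and Mediator (33) and proteases (4). In several lists few of the listed genes matched a symbol: 7 of 79 ribosomal proteins, 2 of 22 histones, 22 of 123 ribosome assembly genes and 6 of 51 cell cycle genes. The unmatched genes are not described by these counts, and none of the 20 tested genes of the septin list is an actin or tubulin gene. The median log2 changes of these lists lay between -0.68 for proteases and 0.31 for autophagy, and the sign of most turned with library totals. Single members came close: tif1, a translation initiation factor gene, had 424 and 445 CPM late, against 1424 and 811 CPM early. ssn3, a Mediator kinase gene, had 95.4 and 97.3 CPM late, against 39.2 and 48.9 CPM early, with a distance between the nearest libraries of 1.94-fold.

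The 18 and 24 h libraries lay mostly between the sides for the genes that were apart. The rule asks for a gap between the sides, and these times lie between theirs. The shares below are thus partly set by the choice of genes, and none over all genes is given beside them. Of the 616 higher genes 503 (81.7%) had an 18 h level between their early and late ones, and 502 (81.5%) a 24 h level there. The shares for the 294 lower genes were 77.6% at 18 h and 73.1% at 24 h. Fewer genes moved 1 way at every step from 12 to 48 h: 286 of the higher genes (46.4%) and 120 of the lower ones (40.8%). The median step of the higher genes on the log2 scale was 0.41 for 6 to 12 h, 0.80 for 12 to 18 h, 0.32 for 18 to 24 h, 0.73 for 24 to 30 h and 0.90 for 30 to 48 h. For the lower genes the steps were -0.29, -0.45, -0.30, -0.51 and -0.71 in the same order, and over all tested genes the medians lay between 0.00 and 0.06. The last step spans 18 h and the others 6 h each. Over all tested genes the quartiles were also widest there, at -0.46 and 0.42, against -0.23 and 0.33 for 24 to 30 h. The first and last steps lie inside a side, but their libraries all enter the rule, so these steps are not free of the choice of genes. The 3 middle steps together span the distance it chose.

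**Figure D5:**
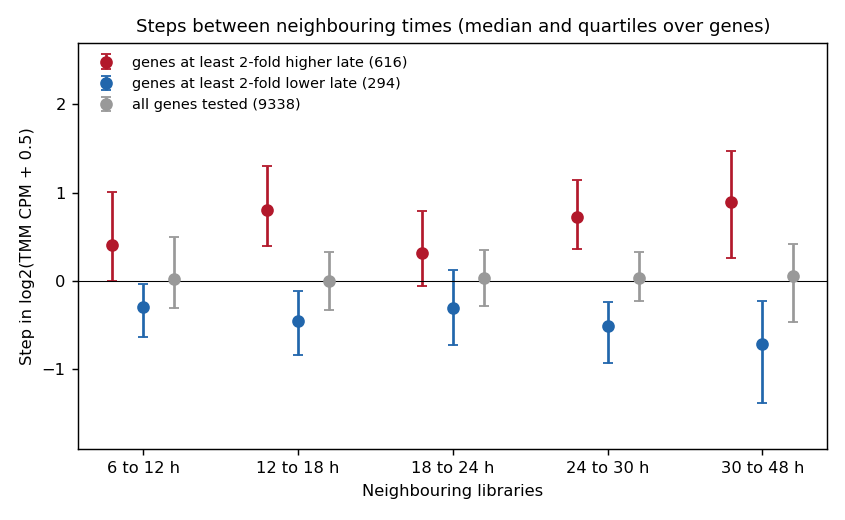
Points are the median log2 step between neighbouring libraries and bars the quartiles over genes, for the 616 genes at least 2-fold higher late (red), the 294 at least 2-fold lower (blue) and all 9338 tested genes (grey), with the pairs of times on the x axis. The red medians lie between 0.32 and 0.90 and the blue ones between -0.71 and -0.29, and the largest of both are those of 30 to 48 h.

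Submerged levels differed between the directions. Of the lower genes 150 of 294 (51.0%) were at least 2-fold above both early libraries in the 0 h library, and 44 at least 2-fold below. Of the higher genes 73 of 616 (11.9%) were above and 104 (16.9%) below, and over all tested genes the shares were 13.9% and 11.7%. The 0 h library had 45.3% of its counts in its 100 most abundant genes, against 23.1% and 20.8% in the 30 and 48 h libraries and 32.1% and 27.8% in the 6 and 12 h libraries, and its part in these shares was not tested. The shares depended on the scale: with library totals, an alternative added after the data were seen, 51 of the 294 lower genes (17.3%) were above both early libraries and 77 (26.2%) below, against 3.1% and 42.1% over all genes. Of the 616 higher genes 16 (2.6%) were then above and 208 (33.8%) below. gpdA, gtb3, agd3, nopA, fhpA and hem13, described above, were all higher at 0 h than at any later time, by TMM CPM and by the authors' RPKM values. For agd3 these RPKM values were 2288 at 0 h and 1906 and 1866 at 6 and 12 h.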

How the data were processed

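One deposited table holds 21 columns for 7 libraries: per the file headers, read counts, RPKM and reads per nucleotide, a coverage signal, for each time. The counts, RPKM and coverage were made by the authors before deposit. CASAVA is named, without a role, in the submitters' processing notes, and the sources used here do not state aligner, build, strand or annotation. An Illumina mRNA kit was used for the libraries, per the labels' protocols, and the raw reads are lost, per the design text. Coverage was not used, and RPKM only for ranks.

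Counts of the 4 libraries were fitted with edgeR 4.0.16 in R 4.3.3 (TMM, robust glmQLFit, glmQLFTest, Benjamini-Hochberg over 9338 genes). Genes needed 1 CPM in 2 libraries and 15 counts in all. An SE is the log2 change over the square root of F. The 0, 18 and 24 h libraries were put on the TMM scale of the 4. Alternatives used limma 3.58.1, DESeq2 1.42.0, other scalings, no filter, a test against a 2-fold change, a middle side and each library left out. Without 1 library, its side holds a lone sample that is assumed to vary like the other side. On simulated data with this design (9218 genes, 200 changed), edgeR recovered 50.5% of genes changed by 2 log2 units and 100% of those changed by 4, with 160 calls of which 10 were false. With none changed it made 0 calls over 9241 genes. All genes were simulated with the same spread (dispersion 0.135) and 1 mean a side, without a change between the 2 times. These rates therefore do not describe genes that differ more than that within a side.

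Genes to be named had to pass the adjusted p. None did, so the 2-fold distance with 0.5 CPM added took its place after the data were seen: the 15 largest changes each way among genes with a symbol, at 20 CPM or more on the higher side, the 5 largest each way at 20 CPM or more on both sides, the 5 highest levels on each side, list members, and IDs. Other list members are named as the nearest misses or the most abundant, after their values were seen. Gene lists were matched by symbol in the RefSeq gene table of assembly ASM1142v1, which held 10455 of 10639 IDs and gave 778 symbols. The sterigmatocystin list matched 0 symbols. The compared times and the lists were chosen with earlier results of these data known. Intervals and floors cover counting error only, and p-values measure only the spread between these libraries.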

Additional observations from a re-analysis of the deposited data

How the results depend on the processing

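By adjusted p the counts of higher and lower genes were 0 and 0 in edgeR with TMM, upper quartile or RLE factors, totals, no filter or a 2-fold threshold, and in limma-voom. They were 537 and 488 in DESeq2 and 211 and 69 with a middle side in edgeR. Leaving out each library in turn gave 0 to 539 higher and 0 to 567 lower, with both highest counts without the 30 h library, and the cause was not tested. The 2-fold distance gave 616 and 294, with library totals 983 and 131, and between 751 and 1447 higher and 352 and 1032 lower with each library left out, where fewer libraries have to stand apart. Upper quartile factors gave 693 and 235, RLE 587 and 322, and an added 0.1 or 2 CPM, tried after the data were seen, 679 and 312 or 432 and 259. With totals the median of all genes moved by 0.42, to 0.52, and list medians moved with it: to 0.61 for repressors, velvet and sexual regulators, 0.48 for the cell cycle, 0.52 for ribosome assembly, 0.76 for autophagy and -0.03 for vesicle transport. In 14 of 30 lists the negative median turned positive with totals: 0.27 for histones, 0.34 for the proteasome, 0.08 for mitochondrial import, 0.04 for upstream activators, 0.14 for G protein signalling, 0.09 for glycolysis, 0.09 for iron, 0.22 for septins, 0.30 for chromatin, 0.34 for heat shock proteins, 0.39 for the peroxisome, 0.21 for ribosomal proteins, 0.24 for splicing and 0.17 for translation. Over all alternatives 13 of 30 list medians kept their sign. The 2 histone genes had a median of -0.05 with upper quartile factors and -0.36 to -0.03 with each library left out. Over 50 named genes and 592 alternatives the direction was kept in 591; stuA ranged between -0.10 and 0.49 with each library left out. Replicate numbers do not exist in the labels. No paired analysis was possible because each time has 1 library. Levels under 3 counts, up to 0.764 CPM in the early libraries, cannot be ranked at this depth.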
